A study of Mus musculus with 12 samples.

Results

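Ambn, Tuba8, Kap, Tacr1, Tmem273 and Plek are 6 mouse genes, of 19938 measured, whose transcript levels differed strongly between Myb-transduced and GFP-transduced cells of the natural killer (NK) cell line KY-2 and much less in the NK cell line KY-1. They were picked from these same arrays because the Myb-minus-GFP difference was much larger in KY-2 than in KY-1, with no numerical limit, so that difference and the levels behind it are given as a description and carry no test. Each gene had 1 probe set that the platform annotation pairs with its symbol alone. KY-2 cells with the Myb vector gave 3 arrays, KY-2 cells with the GFP vector 2, KY-1 cells with the Myb vector 4 and KY-1 cells with the GFP vector 3. The Myb vector encodes FLAG-tagged Myb behind GFP and a P2A peptide, and the GFP vector encodes GFP. All 4 groups carry a p53 knockout, were kept in medium with 200 U/mL human IL-15, and were sorted for GFP before total RNA was taken. Each line is a single cell line, so a difference between KY-2 and KY-1 is one between 2 lines and not between kinds of NK cell.

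Myb is a transcription factor that blood progenitors need and that binds DNA at sites with an AAC core, where it can raise or lower transcription. NK cells are lymphocytes that kill infected or transformed cells with perforin and granzymes, and Myb is usually low in mature ones. The 6 genes share no pathway. Ambn encodes ameloblastin, a secreted protein of the enamel matrix in developing teeth. Tuba8 encodes an alpha-tubulin isotype with a restricted tissue distribution, Kap a kidney protein whose gene responds to androgen, and Tacr1 the receptor for the neuropeptide substance P. Tacr1 is also called the neurokinin-1 receptor, a name unrelated to natural killer cells. Plek encodes pleckstrin, the major protein kinase C substrate of platelets, which is also found in leukocytes. Tmem273 encodes a transmembrane protein, and no role is stated for it here.

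Values are log2 expression summaries, on which a difference of 1 is a 2-fold difference. Array medians over all probe sets lay between 5.31 and 5.42. In KY-1, the first and second GFP arrays were close to identical, as were Myb arrays 3 and 4 (robust SD of their log2 differences 0.0469 and 0.0433, against 0.102 to 0.172 for the other pairs within a group), so each pair was averaged to 1 replicate. This gave 3 Myb and 2 GFP replicates per line. Taking all 12 arrays as separate replicates moved none of the 6 differences between lines by more than 0.065 on the log2 scale. The labels do not say that replicates were separate cultures, so errors and p-values measure only how these samples vary, and that variation may be technical. Of 14 NK cell markers, 12 had a group mean above 8 in at least 1 group. By group the count was 11 in KY-1 Myb, 12 in KY-1 GFP, 10 in KY-2 Myb and 10 in KY-2 GFP. Ncr1 averaged 5.34 in KY-2 Myb and 5.43 in KY-2 GFP, against 7.76 in KY-1 Myb and 9.72 in KY-1 GFP. Eomes went the other way, with 7.37 and 7.30 in KY-2 Myb and GFP and 4.71 and 4.86 in KY-1 Myb and GFP. No marker of 10 tested for myeloid cells, 5 for platelets and megakaryocytes, 6 for ameloblasts, 8 for kidney tubule, 6 for neurons or 5 for B cells had a mean above 8 in any group. Of 8 T cell markers Cd3g and Cd8a did, both in KY-2. In KY-2, 6 of the 14 NK markers fell with Myb and 0 rose (limma adjusted p under 0.05), among them Cd226 (-1.06 log2), Prf1 (-0.82) and Fcgr3 (-0.79), and of the 8 T cell markers 2 rose and 2 fell. In KY-1, 1 NK marker rose and 4 fell, among them Ncr1 (-1.96), and of the T cell markers Cd3g rose by 2.52. Cd3g averaged 7.14 ± 0.21 in KY-1 Myb and 4.62 ± 0.65 in KY-1 GFP (SD), so its low GFP level varied widely. These shares, 42.9% and 50% in KY-2 and 35.7% and 12.5% in KY-1, stand against 2.83% of all genes in KY-2 and 1.22% in KY-1, and the part of these markers in the results below was not tested. In bulk RNA, fewer cells with a transcript and less of it per cell cannot be told apart.

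Myb itself set the scale of the comparison. Its probe set (10368199) read 9.80, 9.67 and 9.75 in the KY-2 Myb arrays and 5.002 and 5.10 in the KY-2 GFP arrays. In KY-1 it read 9.59, 9.57, 9.55 and 9.54 with the Myb vector and 7.96, 7.92 and 8.04 with the GFP vector. The lines therefore had nearly the same level with the Myb vector (KY-2 minus KY-1 0.17) and levels 2.94 apart on the log2 scale with GFP, KY-2 being the lower. The Myb-minus-GFP difference was 4.69 ± 0.08 in KY-2 and 1.58 ± 0.08 in KY-1 (SE, limma adjusted p = 1.06e-10 and 3.89e-06). Native and vector-encoded transcript cannot be told apart in these values.

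Ambn, Tuba8 and Kap shared one pattern: a low value in 3 of the groups and a higher one only in KY-2 cells with the Myb vector. Ambn (probe set 10522946) read 7.03, 7.16 and 7.26 in the KY-2 Myb arrays and 3.69 and 4.01 in the KY-2 GFP arrays. In KY-1 it read 3.78, 3.92, 4.03 and 3.91 with Myb and 3.91, 3.73 and 4.001 with GFP. Every KY-2 Myb array stood above all 9 others, and the other 3 groups overlapped. The Myb-minus-GFP difference of Ambn was 3.30 ± 0.12 log2 in KY-2, or 9.82-fold, and -0.02 ± 0.12 in KY-1 (SE). Of the 19938 genes, Ambn had the largest difference between the responses of the lines (3.31 ± 0.16, SE).

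Tuba8 (probe set 10541301) read 6.84, 6.97 and 7.02 in the KY-2 Myb arrays and 4.47 and 4.55 in the KY-2 GFP arrays. In KY-1 it read 4.35, 4.52, 4.38 and 4.44 with Myb and 4.36, 4.65 and 4.92 with GFP. The KY-1 groups overlapped, and KY-1 GFP array 3 was the highest outside the KY-2 Myb group. The difference was 2.43 ± 0.12 log2 in KY-2 (5.40-fold) and -0.29 ± 0.12 in KY-1 (SE). Alpha-tubulin genes are alike in sequence, so a probe set can read more than 1 of them.

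Kap (probe set 10548692) read 6.30, 6.33 and 5.97 in the KY-2 Myb arrays and 3.98 and 3.97 in the KY-2 GFP arrays. The KY-1 arrays read 3.57, 3.78, 3.73 and 3.78 with Myb and 4.09, 3.84 and 3.83 with GFP, the Myb arrays lying just below the GFP arrays. The difference was 2.23 ± 0.12 log2 in KY-2 (4.68-fold) and -0.20 ± 0.12 in KY-1 (SE). The low values of these 3 genes lay below the median of all genes, which was 5.57 in KY-2 GFP and 5.53 in KY-1 GFP, and no detection call comes with the table. The folds in KY-2 therefore rest on GFP values whose background is not measured. All 6 ameloblast markers and all 8 kidney tubule markers had means below 6 in every group. The mean level of the ameloblast markers lay between 3.81 and 3.91 in the KY-2 Myb replicates and between 3.68 and 3.71 in the KY-2 GFP replicates, and that of the kidney tubule markers between 4.55 and 4.71 in KY-2 Myb and between 4.61 and 4.69 in KY-2 GFP.

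These levels were also counted over all genes, with limits that were chosen after the values were seen, so the count is a description. Of 7492 genes with a mean below 5 in KY-2 GFP, KY-1 Myb and KY-1 GFP, 6 reached 6 or more in KY-2 Myb. Beside Ambn, Tuba8 and Kap they were Bex6, Plac8 and Sptssb. Bex6 averaged 6.15 ± 0.17 in KY-2 Myb and 4.32 ± 0.28 in KY-2 GFP, against 4.28 ± 0.17 in KY-1 Myb and 4.12 ± 0.09 in KY-1 GFP (SD). Plac8 averaged 6.09 ± 0.07 and 3.78 ± 0.11 in KY-2 Myb and GFP, and 4.81 ± 0.31 and 3.80 ± 0.38 in KY-1 Myb and GFP (SD). Sptssb, a small subunit of serine palmitoyltransferase, averaged 6.68 ± 0.20 and 4.85 ± 0.01 in KY-2 Myb and GFP, and 4.05 ± 0.13 and 3.55 ± 0.09 in KY-1 Myb and GFP (SD). In KY-1 the means of Bex6, Plac8 and Sptssb were higher with Myb than with GFP, and those of Ambn, Tuba8 and Kap were not. The count depends on the limit of 6. Prl2c5 (5.45 in KY-2 Myb, 3.32 in KY-2 GFP) and Sh2d1a (4.93 and 3.31) were also higher in KY-2 Myb alone, below that limit.

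The promoter windows of these 3 genes and of Tacr1, the other gene higher with Myb in KY-2, are shown because Myb binds DNA directly and the 4 genes moved the same way. Each window runs from 250 bases before to 50 bases after the RefSeq start (GRCm38.p6), 5′ to 3′ on the gene's strand, with AACNG and its complement CNGTT in capitals.
Ambn, chr5:88455741-88456040, plus strand: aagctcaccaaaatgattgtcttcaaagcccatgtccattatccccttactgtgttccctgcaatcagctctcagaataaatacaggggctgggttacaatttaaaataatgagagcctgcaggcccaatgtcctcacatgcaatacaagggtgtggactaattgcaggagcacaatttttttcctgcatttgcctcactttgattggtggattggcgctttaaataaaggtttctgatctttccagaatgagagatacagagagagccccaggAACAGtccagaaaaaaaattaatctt
Tuba8, chr6:121210484-121210783, plus strand: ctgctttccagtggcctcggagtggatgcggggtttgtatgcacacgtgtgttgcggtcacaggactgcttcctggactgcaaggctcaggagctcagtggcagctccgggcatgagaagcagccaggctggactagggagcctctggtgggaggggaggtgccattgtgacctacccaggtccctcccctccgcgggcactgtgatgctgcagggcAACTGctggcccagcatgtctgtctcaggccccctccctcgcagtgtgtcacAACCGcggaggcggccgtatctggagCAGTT
Kap, chr6:133853618-133853917, minus strand: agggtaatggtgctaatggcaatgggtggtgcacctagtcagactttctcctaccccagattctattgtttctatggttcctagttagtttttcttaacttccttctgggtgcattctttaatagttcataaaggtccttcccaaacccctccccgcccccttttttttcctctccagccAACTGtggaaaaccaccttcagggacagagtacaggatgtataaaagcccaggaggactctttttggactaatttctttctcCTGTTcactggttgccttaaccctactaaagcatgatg
Tacr1, chr6:82402225-82402524, plus strand: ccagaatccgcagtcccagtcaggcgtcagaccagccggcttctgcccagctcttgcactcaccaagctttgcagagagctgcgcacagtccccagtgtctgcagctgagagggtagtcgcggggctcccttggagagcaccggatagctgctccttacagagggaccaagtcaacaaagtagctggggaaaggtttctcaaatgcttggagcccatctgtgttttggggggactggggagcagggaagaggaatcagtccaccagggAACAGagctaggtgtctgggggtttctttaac

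Ambn held 1 such match, beginning 25 bases after the start. Tuba8 held 3, at -33, 20 and 46 from the start, Kap 2, at -70 and 13, and Tacr1 1, at 19. Tmem273 and Plek, which were lower with Myb in KY-2, held 1 each, at -84 and -77. The core is short and common: 80.3% of 32851 RefSeq windows of the same length held at least 1 match on either strand, with a median of 2, so its presence in all 6 windows does not set these genes apart. Neither TTCNNNGAA, the core bound by STAT factors, nor TGANTCA, the core bound by AP-1, occurred in any of the 6 windows on either strand, and 8.3% and 7.81% of all windows held them. Both cores read the same on either strand, and a match or its lack in these windows says nothing on binding.

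Tacr1 differed from the first 3 genes in its KY-1 level. Its probe set (10539244) read 8.29, 8.21 and 8.24 in the KY-2 Myb arrays and 5.40 and 5.20 in the KY-2 GFP arrays. In KY-1 it read 10.20, 10.19, 10.20 and 10.25 with Myb and 9.64, 9.62 and 9.84 with GFP. No groups overlapped: KY-2 GFP was lowest, then KY-2 Myb, KY-1 GFP and KY-1 Myb. The difference was 2.94 ± 0.09 log2 in KY-2 (7.68-fold) and 0.47 ± 0.09 in KY-1 (1.39-fold, SE).

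The line gap of Tacr1 was thus smaller with Myb. KY-2 minus KY-1 was -1.96 with the Myb vector and -4.43 ± 0.10 (SE) with GFP, a 21.6-fold higher level in KY-1 GFP than in KY-2 GFP. Tacr1 and Myb had the same order of lines with GFP, KY-1 above KY-2. With Myb vector, Myb was nearly level between the lines and Tacr1 was not. Over all genes, 13 had a mean at least 16-fold lower in KY-2 GFP than in KY-1 GFP, a limit set with the values known. Tacr1 was the only one of these 13 that was at least 2-fold higher with Myb in KY-2, while 0 were 2-fold lower. The KY-2 GFP arrays enter both the limit and the difference, which favours rises over falls. Tacr1 was also chosen for its response, so nothing is read from these counts. Under that limit, KY-2 GFP minus KY-1 GFP was -3.21 for Fam20a, -2.40 for Myl10 and -2.31 for P2rx4. Their Myb-minus-GFP differences in KY-2 were 1.68, 1.57 and 1.51, so the directions were not particular to Tacr1. Genes under the limit were not counted by direction.

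Plek was the opposite case, a gene of KY-2 that was lower with Myb. Its probe set (10384458) read 7.79, 7.68 and 7.67 in the KY-2 Myb arrays and 9.83 and 9.53 in the KY-2 GFP arrays. The KY-1 arrays read 4.43, 4.47, 4.42 and 4.40 with Myb and 4.67, 4.58 and 4.73 with GFP. No groups overlapped, and KY-2 was above KY-1 with both vectors. The difference was -1.97 ± 0.10 log2 in KY-2, or 3.91-fold lower with Myb, and -0.24 ± 0.10 in KY-1 (SE), where all values lay below the median of all genes. The KY-2 Myb level stayed above KY-1 by 3.28, against 5.003 ± 0.11 (SE) with GFP. All 5 platelet and megakaryocyte markers had means below 6 in every group, with a mean level between 4.39 and 4.57 in the KY-2 Myb replicates and between 4.37 and 4.47 in the KY-2 GFP replicates.

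Among 149 genes with means below 5 in both KY-1 groups and of 6 or more in KY-2 GFP, 13 were at least 2-fold lower with Myb in KY-2, Plek included, and 1 was 2-fold higher. Of these 13, 1 had a more negative difference than Plek. The 27 genes at least 16-fold higher in KY-2 GFP than in KY-1 GFP included 3 that were at least 2-fold lower with Myb in KY-2, namely Plek, Trhr, a receptor for thyrotropin-releasing hormone, and the predicted gene Gm5662, and 0 that were 2-fold higher. Trhr averaged 7.21 in KY-2 Myb and 8.62 in KY-2 GFP, against 3.78 in KY-1 Myb and 3.57 in KY-1 GFP, and it was named after its values were seen. These limits were also set with the values known. The KY-2 GFP arrays enter both the limits and the differences, which favours falls over rises in both sets. The share of all genes at least 2-fold lower was not counted, so nothing is read from these counts.

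Tmem273 was measured well above the median of all genes in both lines with GFP, and the gap between the lines was larger with Myb. Its probe set (10413928) read 5.25, 5.90 and 5.51 in the KY-2 Myb arrays and 7.99 and 7.76 in the KY-2 GFP arrays. The KY-1 arrays read 10.18, 10.23, 10.08 and 10.11 with Myb and 9.79, 9.83 and 9.70 with GFP. No groups overlapped, and KY-2 Myb was the lowest. The difference was -2.32 ± 0.16 log2 in KY-2 and 0.41 ± 0.16 in KY-1 (SE), so the sign differed between the lines. KY-2 minus KY-1 was -4.61 with Myb and -1.88 ± 0.17 (SE) with GFP. The KY-2 Myb arrays of Tmem273 had the widest spread of the 6 genes (SD 0.33, n = 3), and their mean of 5.55 lay close to the median of all genes.

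The Myb arrays were separate from the GFP arrays for 6 of the 6 genes in KY-2 and for 4 of them in KY-1 (Kap, Tacr1, Tmem273 and Plek). With so few arrays such separation was common, at 31% of all genes in KY-2 and 19% in KY-1. Over all genes, limma called 2.83% in KY-2 and 1.22% in KY-1 at an adjusted p under 0.05, and 0.843% for the difference between the lines, 0.461% higher and 0.381% lower in KY-2. Since the genes were chosen by these same arrays, nothing is read from those counts. Absolute differences ran between 1.97 and 3.30 in KY-2 and between 0.02 and 0.47 in KY-1.

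Set against the GFP level of each line, the 6 genes fell into different places. The 4 genes higher with Myb in KY-2 had KY-2 GFP means of 3.85 (Ambn), 3.97 (Kap), 4.51 (Tuba8) and 5.30 (Tacr1), all below the median of 5.57. Both genes lower with Myb had KY-2 GFP means above it, 7.88 for Tmem273 and 9.68 for Plek. The GFP level is subtracted in the difference, and the genes were chosen for a larger one in KY-2 than in KY-1. A split of this kind is thus favoured by the choice. In KY-1 GFP, Ambn (3.91), Kap (3.90) and Tuba8 (4.71) were as low as in KY-2 GFP (KY-2 minus KY-1 -0.06 ± 0.13, 0.08 ± 0.13 and -0.20 ± 0.13, SE). Their KY-1 differences with Myb were -0.02, -0.20 and -0.29. Of 8061 genes with a KY-2 GFP mean below 5, 16 were at least 2-fold and 5 at least 4-fold higher with Myb in KY-2. Of 8175 such genes in KY-1, 8 were at least 2-fold and 2 at least 4-fold higher with Myb there. Ambn, Tuba8 and Kap are among the 16 and the 5 in KY-2. They were chosen for a larger response there, so the counts of the lines are not compared. Genes with higher GFP levels were not counted this way, so these counts do not set genes of low level apart.

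**Figure D1:**
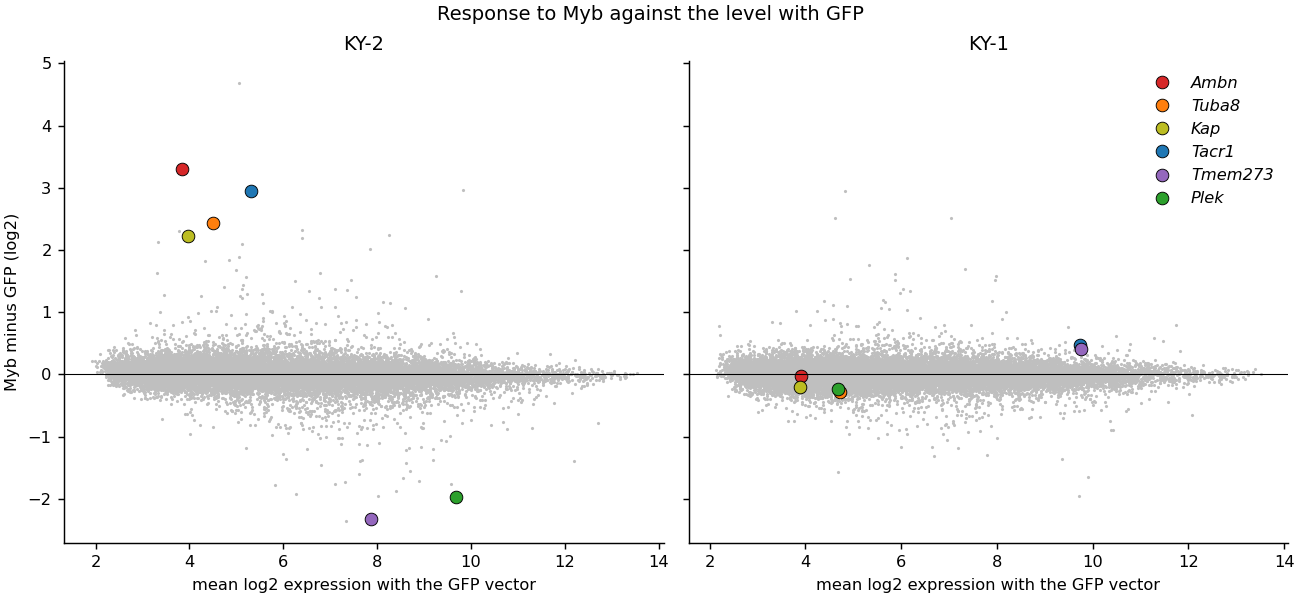
Myb-minus-GFP difference (log2, vertical axis) against the mean log2 level with the GFP vector (horizontal axis) for all 19938 genes (grey) and the 6 genes (coloured), KY-2 on the left and KY-1 on the right. In KY-2 the 4 genes with positive differences start from GFP levels of 3.85 to 5.30. The 2 with negative ones start from 7.88 and 9.68. In KY-1 the absolute differences of all 6 are between 0.02 and 0.47. The GFP level enters both axes.

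The chromosomal neighbours of the 6 genes were not used in choosing them, and their response was tested. The 5 nearest measured genes on each side were taken from the RefSeq gene order, 60 in all, on chromosomes 5 (Ambn), 6 (Tuba8, Kap and Tacr1), 14 (Tmem273) and 11 (Plek). In KY-2, 2 of the 60 rose with Myb and 0 fell (limma adjusted p under 0.05; 7 and 2 at an unadjusted p under 0.05), or 3.33% against 1.28% of all genes that rose and 0% against 1.55% that fell. In KY-1, 0 rose and 1 fell, or 1.67%, against 0.612% in each direction over all genes (4 and 4 at an unadjusted p under 0.05). The difference between lines was called for 0 of 60, with 7 at an unadjusted p under 0.05, against 0.843% of all genes. The median of the 60 was 0.03 in KY-2 and 0.04 in KY-1, against 0.01 and 0.00 over all genes.

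Ambn lies in a chromosomal region that holds genes of tooth, saliva and milk proteins. Amtn, which encodes amelotin, another enamel protein, and Enam, which encodes enamelin, flank Ambn directly and had differences of 0.27 ± 0.12 and 0.13 ± 0.09 log2 in KY-2 (SE, limma adjusted p = 0.336 and 0.609). Amtn averaged 4.25 in KY-2 Myb and 3.98 in KY-2 GFP, and Enam averaged 3.01 in KY-2 Myb and 2.88 in KY-2 GFP. All 10 neighbours of Ambn lay between -0.11 and 0.27 in KY-2. No milk protein gene was among these 10, so they do not stand for the whole region. The milk protein gene Csn3 was at -1.87 in KY-2 and is given with the lists below.

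Around Tuba8, Slc6a13, a transporter of the neurotransmitter GABA, rose by 1.02 ± 0.23 log2 in KY-2 (SE, limma adjusted p = 0.044) and was at -0.05 ± 0.23 in KY-1 (adjusted p = 0.971). It averaged 5.47 in KY-2 Myb and 4.46 in KY-2 GFP, below the median of all genes. The direct neighbours were Usp18, a protease that removes the interferon-induced modifier ISG15, at 0.59 ± 0.14 in KY-2 and 0.58 ± 0.14 in KY-1 (adjusted p = 0.0548 and 0.097), and Pex26 at 0.14 ± 0.09 in KY-2 (adjusted p = 0.576). Beside Kap, Etv6, an ETS family repressor, rose by 0.42 ± 0.08 in KY-2 (adjusted p = 0.0204), and Smim10l1 on the other side was at 0.53 ± 0.13 (adjusted p = 0.0533). The KY-2 calls were lost in 9 of 16 alternative settings for Slc6a13 and in 5 of 17 for Etv6. Without KY-2 GFP replicate 1 the adjusted p was 0.357 for Slc6a13 and 0.112 for Etv6, and both were lost without KY-2 GFP replicate 2 (0.123 and 0.172), Myb replicate 2 (0.101 and 0.0701) and Myb replicate 3 (0.0953 and 0.0757) as well.

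Around Tacr1, Pole4, a subunit of DNA polymerase epsilon, was at 0.34 ± 0.08 and Eva1a at -0.06 ± 0.13 in KY-2 (SE, limma adjusted p = 0.0589 and 0.911). Sema4f, a semaphorin, fell by 0.50 ± 0.11 in KY-1 (adjusted p = 0.0496), a call lost in 10 of 16 alternative settings. The direct neighbours of Tmem273 were Prrxl1 at 0.09 ± 0.11 and Fam170b at 0.14 ± 0.09 in KY-2 (adjusted p = 0.821 and 0.575). Those of Plek were Fbxo48 at 0.06 ± 0.14 and Cnrip1 at -0.44 ± 0.17 (adjusted p = 0.926 and 0.263). No neighbour of Tmem273 or Plek was called in either line.

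**Figure D2:**
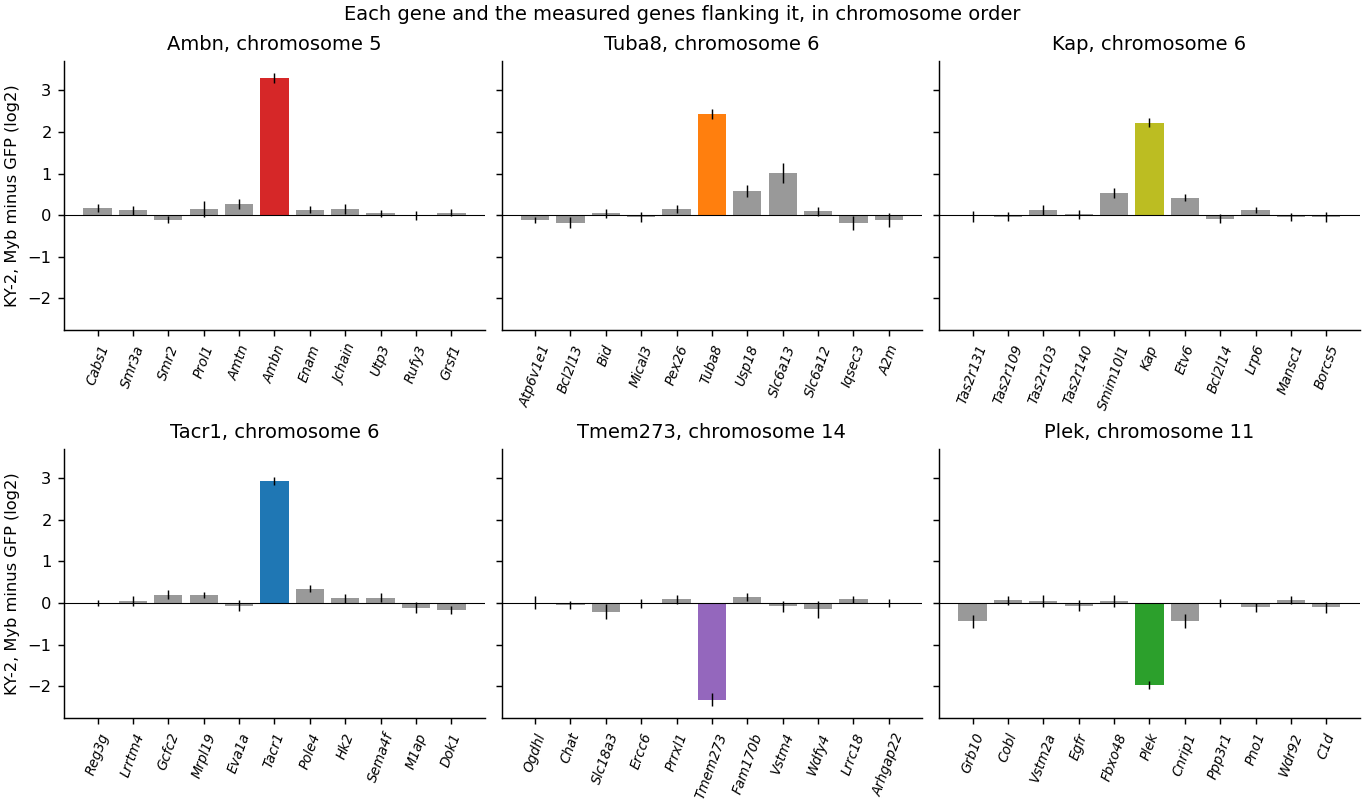
Myb-minus-GFP difference in KY-2 (log2, bars, with SE) for each of the 6 genes (coloured) and the 5 nearest measured genes on each side (grey), in chromosome order and not to distance. Every coloured bar stands beyond its 10 neighbours, of which the tallest is Slc6a13 at 1.02.

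Genes related to the 6 by family, pathway or regulation, Tmem273 excepted, were looked at in 5 lists, with the 6 left out of every count. They are not all partners of the 6. Of 80 genes tested over the lists, 3 rose and 3 fell in KY-2, or 7.5% against 2.83% of all genes, and 4 rose and 2 fell in KY-1, or 7.5% against 1.22%. The lists were chosen with earlier results of these data known, so these shares are a description. The KY-1 counts fell on leaving out some single replicates, in the lists and over all genes alike. The count of 6 list genes was 3 without KY-1 Myb replicate 1 or without KY-1 Myb replicate 2. The count over all genes, 244, was 123 and 142 in these settings and 140 without the averaged KY-1 Myb arrays. Both counts also fell without either KY-1 GFP replicate, which leaves 1 replicate in that group. The difference between the lines was called for 2, or 2.5% against 0.843%, and for 1 without KY-1 GFP replicate 3, KY-2 GFP replicate 1 or KY-2 GFP replicate 2. Over all genes, the KY-2 count of 565 was 182 without KY-2 GFP replicate 1, 284 without KY-2 GFP replicate 2 and 367 without KY-2 Myb replicate 3, and the count for the difference, 168, was 88 without KY-2 GFP replicate 1 and 109 without KY-1 GFP replicate 3. The median over the 80 was 0.02 in KY-2 and -0.03 in KY-1, against 0.01 and 0.00 over all genes.

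Of 17 tested genes of the enamel matrix and its relatives, the secretory calcium-binding phosphoproteins, 1 rose and 1 fell in KY-2. Fam20a, a partner of the secretory kinase Fam20c that enamel formation needs, averaged 6.67 in KY-2 Myb and 4.996 in KY-2 GFP, a rise of 1.68 ± 0.12 log2 (SE, limma adjusted p = 2.04e-05), against 8.80 in KY-1 Myb and 8.21 in KY-1 GFP, a rise of 0.59 ± 0.12 (adjusted p = 0.0477). The KY-1 call was lost on leaving out any 1 of 9 of the 10 replicates, KY-1 Myb replicates 3 and 4 being the exception. Like Tacr1, Fam20a was higher in KY-1 than in KY-2 with both vectors. The milk protein gene Csn3 fell by 1.87 ± 0.13 in KY-2 and rose by 1.06 ± 0.13 in KY-1 (adjusted p = 9.99e-06 and 0.00221). It averaged 6.52 in KY-2 Myb and 8.39 in KY-2 GFP, against 6.63 in KY-1 Myb and 5.57 in KY-1 GFP. The milk protein gene Csn1s2a was at 0.67 ± 0.16 and the enamel protease gene Mmp20 at 0.33 ± 0.14 in KY-2 (adjusted p = 0.0589 and 0.325).

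Of 16 tested tubulin genes, 1 rose and 1 fell in KY-2, and 0 were called in KY-1 (4 at an unadjusted p under 0.05). Tuba4a, another alpha-tubulin, averaged 10.29 in KY-2 Myb and 9.62 in KY-2 GFP, a rise of 0.67 ± 0.10 log2 (SE, limma adjusted p = 0.00302). Tubb2a, a beta-tubulin, fell by 0.42 ± 0.08 (adjusted p = 0.0145). Without KY-2 GFP replicate 1 the adjusted p was 0.0596 for Tuba4a and 0.213 for Tubb2a, and that of Tubb2a was 0.0558 without KY-2 Myb replicate 3. Tube1 was at 0.40 ± 0.11 and Tubb6 at -0.31 ± 0.09 (adjusted p = 0.0916 and 0.105).

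Of 21 tested genes of tachykinins, their receptors and receptor signalling, 0 rose and 1 fell in KY-2. Grk5, a kinase that desensitizes G protein-coupled receptors, fell by 0.94 ± 0.12 log2 in KY-2 and by 1.17 ± 0.12 in KY-1 (SE, limma adjusted p = 0.00165 and 0.000863). The arrestin gene Arrb1 was at -0.34 ± 0.09 in KY-2 (adjusted p = 0.0849) and fell by 0.44 ± 0.09 in KY-1 (adjusted p = 0.0462), a call lost on leaving out any single replicate. Gna11, a G protein alpha subunit, was at 0.31 ± 0.09 and Grk6 at -0.34 ± 0.11 in KY-2 (adjusted p = 0.147 and 0.165).

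Of 19 tested genes of pleckstrin's relatives, protein kinase C and phosphoinositide metabolism, 1 rose and 0 fell in KY-2. That was Prkce, a protein kinase C isoform, which rose by 0.45 ± 0.10 log2 (SE, limma adjusted p = 0.0455), a call lost in 12 of 16 alternative settings, for example without KY-2 GFP replicate 2 (adjusted p = 0.3). Prkcq was at -0.34 ± 0.11, Inpp5b at -0.25 ± 0.09 and Inpp5a at 0.24 ± 0.09 in KY-2 (adjusted p = 0.169, 0.255 and 0.268). In KY-1, 1 of the 19 rose, Pik3r5, a regulatory subunit of phosphoinositide 3-kinase, by 0.52 ± 0.09 (adjusted p = 0.0239), named here after its value was seen. Of 7 tested genes of androgen response and androgen-regulated kidney genes, 0 were called in KY-2 (1 at an unadjusted p under 0.05), and Ncoa4, a coactivator that also targets ferritin for breakdown, rose by 0.56 ± 0.08 in KY-1 (adjusted p = 0.0089, and 0.12 without KY-1 GFP replicate 3). In KY-2 Ncoa4 was at 0.23 ± 0.08, Tmprss2 at -0.35 ± 0.16, Gusb at 0.07 ± 0.08 and Slco1a1 at 0.06 ± 0.09 (adjusted p = 0.245, 0.387, 0.828 and 0.881).

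**Figure D3:**
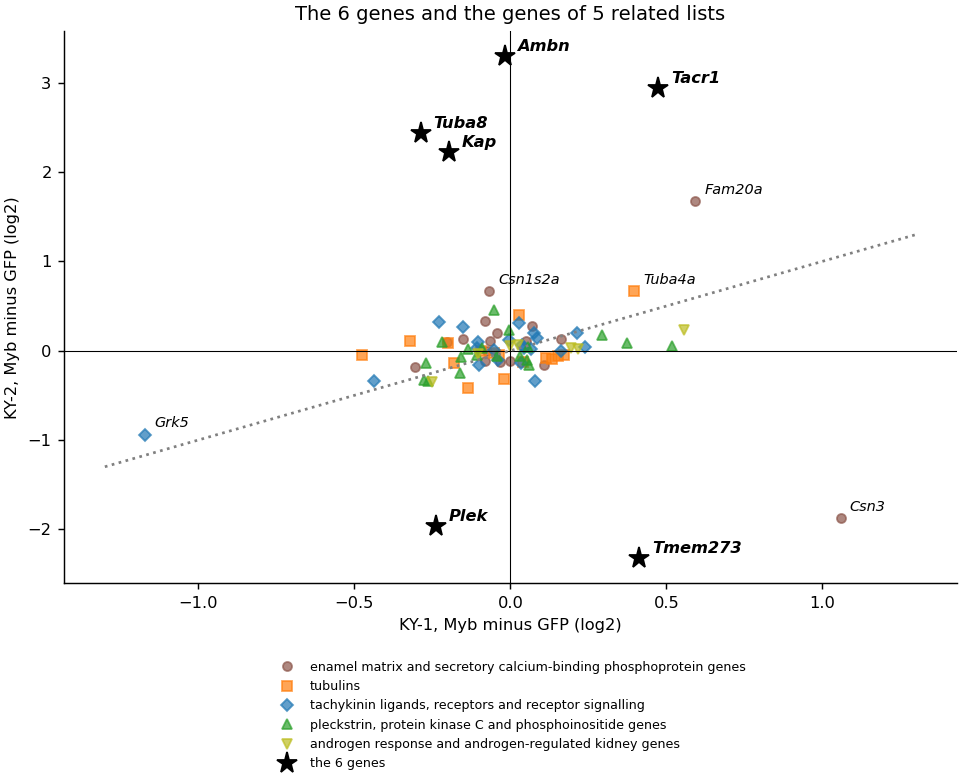
Myb-minus-GFP difference in KY-2 (log2, vertical axis) against that in KY-1 (log2, horizontal axis) for the 6 genes (stars) and the genes of the 5 lists (symbols by list), with a dotted line of equal differences. The axes have different scales. The stars lie between -0.29 and 0.47 on the horizontal axis and between -2.32 and 3.30 on the vertical one, and most list genes lie near the origin, with Fam20a, Csn3 and Grk5 farthest out.

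The genes whose pattern was most like each of the 6 were ranked by Pearson correlation over the 10 replicates, among 1324 genes whose group means spanned at least 1 on the log2 scale. The replicates fall into 4 groups, so such a correlation describes the 4 levels and has no test. Ambn and Tuba8 were among each other's nearest 3 genes (r = 0.994), and so were Ambn and Kap (r = 0.986). Tuba8 was among the nearest 3 of Kap (r = 0.984), but Kap was not among those of Tuba8. The other near genes were Prl2c5, of the prolactin family, with r between 0.979 and 0.993, and the SAP adaptor gene Sh2d1a, with r = 0.986 to Tuba8. Prl2c5 averaged 5.45 in KY-2 Myb and 3.32 in KY-2 GFP, against 3.48 in KY-1 Myb and 3.33 in KY-1 GFP, all below the median of all genes.

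Nearest to Tacr1 were P2rx4, an ATP-gated ion channel, at r = 0.997, Myl10 at 0.996 and Znrf1, a ubiquitin ligase, at 0.992. P2rx4 averaged 7.74 in KY-2 Myb and 6.24 in KY-2 GFP, against 8.85 in KY-1 Myb and 8.55 in KY-1 GFP, the same order of groups as Tacr1. Nearest to Tmem273 were the granzyme gene Gzmd at r = 0.985, Ncoa3 at 0.984 and Arrdc4 at 0.983. Gzmd averaged 5.33 in KY-2 Myb and 6.80 in KY-2 GFP, against 8.99 in KY-1 Myb and 9.10 in KY-1 GFP. Nearest to Plek were Pacs1 at r = 0.996, the sphingomyelin synthase gene Sgms1 at 0.993 and Susd4 at 0.993. Pacs1 averaged 8.91 in KY-2 Myb and 9.35 in KY-2 GFP, against 8.17 in KY-1 Myb and 8.18 in KY-1 GFP, a smaller span than that of Plek.

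**Figure D4:**
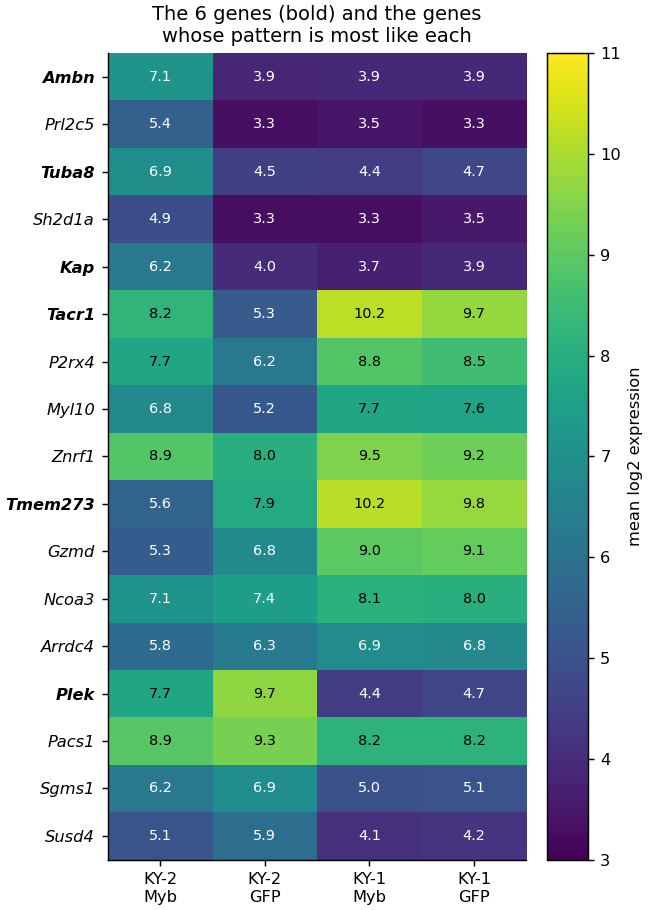
Mean log2 expression (colour and printed value) of the 6 genes (bold) and the genes most like each (rows) in the 4 groups (columns). Ambn, Tuba8, Kap, Prl2c5 and Sh2d1a share a higher value in KY-2 Myb alone, and the genes after Tacr1, Tmem273 and Plek span less than the gene they follow.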

How the data were processed

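The authors deposited a log2 value per probe set for 12 single-colour Affymetrix arrays. The submitters' processing notes name Partek and RMA, a method of background correction, quantile normalization and probe summary. Their versions and options are not stated there. Of 35556 probe sets, 21789 were paired with 1 symbol, 1621 with several and 12146 with none in the annotation used. Symbols were checked by Entrez identifier against RefSeq (GRCm38.p6), which changed 0 and left 91 unmatched. The brightest probe set stood for each of the 999 genes with more than 1.

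limma 3.58.1 in R 4.3.3 fitted the 4 group means to 10 replicates, with Benjamini-Hochberg adjustment over 19938 genes at 0.05. Near-identical arrays were averaged. Precision is limited by the number of arrays. The 6 genes, the lists and the averaging were chosen with earlier results of these data known. In simulated data for Myb minus GFP in KY-2 over 19938 genes, the fit recovered 100% of 100 genes changed by 1 and of 100 changed by 2 on the log2 scale, with 12 false calls.

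Named were the 6 genes and Myb, direct neighbours and any called flanking gene, up to 4 genes per list by the smallest p in KY-2, and the 3 genes most like each of the 6. Neither neighbours nor likeness ranks included predicted genes or small RNAs. Same-numbered arrays of both vectors had deviations that correlated at -0.226, -0.36 and -0.465 in KY-1 and -0.00502 and 0.115 in KY-2 over 6587 genes, so the numbers were not taken as pairs. Alternatives were all 12 arrays as separate replicates, a second quantile normalization, median centring, mean probe sets, a filter on dim genes, a replicate block, trended and robust moderation, and leaving out each replicate.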

Additional observations from a re-analysis of the deposited data

Results flagged for a closer look

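Of the neighbours and list genes named above, 2 had Myb effects that differed between the lines by the limma test of the difference itself. These 2 are list genes, and the lists were chosen with earlier results of these data known. For Csn3 the KY-2 effect minus the KY-1 effect was -2.93 ± 0.18 log2 (SE, limma adjusted p = 2.19e-05), with Myb lower than GFP in KY-2 and higher in KY-1. For Fam20a it was 1.08 ± 0.17 (SE, limma adjusted p = 0.0139), with Myb higher than GFP in both lines, and the call was lost without KY-2 GFP replicate 1 (adjusted p = 0.078), without KY-2 GFP replicate 2 (0.0585) and without KY-1 GFP replicate 3 (0.0784).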

How the results depend on the processing

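The differences between the lines of the 6 genes kept their sign in all settings. On leaving out single replicates they ranged between 3.16 and 3.47 for Ambn, 2.51 and 2.93 for Tuba8, 2.37 and 2.57 for Tacr1, and -1.88 and -1.58 for Plek. The KY-2 differences ranged between 3.14 and 3.45 for Ambn, 2.84 and 3.04 for Tacr1, and -2.12 and -1.81 for Plek. In KY-1 those of Tuba8 ranged between -0.49 and -0.08 and those of Tacr1 between 0.37 and 0.58. Counts of called genes depended more on the setting. Over all genes, 565 were called in KY-2, 244 in KY-1 and 168 for the difference, and leaving out single replicates gave 182 to 556, 72 to 227 and 88 to 142. With 12 separate arrays 823 were called in KY-1 and 427 for the difference. The filter on dim genes gave 875 in KY-2, 457 in KY-1 and 371 for the difference, and trended robust moderation gave 897, 503 and 387. Of the 60 neighbours, 2 were called in KY-2, with 5 under 12 arrays, 5 under second quantile normalization, 4 under the filter, 5 under trended moderation and 0 to 3 on leaving out replicates. In KY-1, 1 was called, with 4 under 12 arrays, 0 under second quantile normalization, 2 under trended moderation and 0 to 1 on leaving out replicates, and 12 arrays gave 1 for the difference. For the tubulins, 2 were called in KY-2, 4 under the filter and under trended moderation, and 0 to 2 on leaving out replicates. For the tachykinin list the count of 1 was 2 under 12 arrays, 3 under the filter and 2 under trended moderation. For the pleckstrin list it was 0 under second quantile normalization, median centring and the filter, and 0 to 1 on leaving out replicates. Over the 5 lists in KY-1, 6 were called, 11 with 12 arrays and 2 to 6 on leaving out replicates, and for the difference 1 to 3 on leaving out replicates. With the replicate number as a block the neighbours called were 1 in KY-2 and 2 in KY-1, the pleckstrin count was 0, and the Ambn difference between the lines was 3.21. Of 1746 recomputed tests of named genes, 63 lost a call and 42 gained one. The sign changed in 0 of the 320 that belong to called differences and in 49 of the 1426 that belong to differences not called. The cause was not tested. Values near the lower end of the scale have no detection call.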
